A study of Homo sapiens with 12 samples.

Results

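The mitochondrial fatty acid oxidation enzymes described here are 10 genes, HADH, HADHA, HADHB, ACADM, ACADVL, ACADS, ECI1, ECI2, CPT1A and CPT2. They were selected from earlier results of these data, in which HADH, HADHB and ECI2 had already been seen, and their features were found by gene symbol in the platform's annotation. Cells of the human pancreatic carcinoma line MiaPaCa-2 received LE, the leaf extract of Achyranthes aspera dissolved in methanol, at 34 μg/mL, and RNA of the treated cells was hybridized together with RNA of control cells exposed to 2% methanol. Of the 12 arrays, each with 2 colors and 1 log2 ratio per feature, 6 were of the 24 h time point, 4 of 48 h and 2 of 72 h. RNA of LE cells carried Cy5 on 3, 2 and 1 arrays of these time points, which makes 6 in all, and Cy3 on the other 6. All values come from 1 cell line and 1 dose. The methods describe cultures set up in duplicate while the labels count 6, 4 and 2 replicates, so p-values rest on differences between arrays that can be technical.

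Mitochondrial beta-oxidation shortens fatty acids step by step and delivers acetyl-CoA and reduced electron carriers to the respiratory chain. Carnitine palmitoyltransferases bring long-chain acyl groups into the matrix, acyl-CoA dehydrogenases open each cycle, and hydratase, 3-hydroxyacyl-CoA dehydrogenase and thiolase activities close it. Long-chain substrates use the mitochondrial trifunctional protein, made of HADHA and HADHB, while isomerases prepare the double bonds of unsaturated fatty acids. The liver, heart and muscle are the classic tissues of the pathway, and many tumor cells express it as well.

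The platform's annotation gives 13 features to the 10 genes, of 43376 features in all. Values were present for 10 of the 13 features (76.9%), against 39.5% of all features and 42.9% of the 31332 features with a single symbol. A feature had values on all 12 arrays or on none. ACADS, the short-chain acyl-CoA dehydrogenase, had 1 feature and it was blank, and 1 further feature of HADH and 1 of HADHA were blank. CPT1A had 2 measured features and HADH, HADHA, HADHB, ACADM, ACADVL, ECI1, ECI2 and CPT2 had 1 each, so 9 of the 10 genes were measured. The methods kept a feature only where it met spot quality criteria on every array and changed in opposite directions when the dyes were swapped. The study's results describe the dye-swap comparison as a later selection for each time point, so the measured features need not have passed it. The measured ratios do not show the dye-swap criterion on every array. HADH, for example, was at -0.36 and 1.63 on 24 h replicates 2 and 5, both with LE in Cy5. What made these 3 features blank was not tested.

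How far a gene name can be attached to a ratio is limited in these files. Over 168 accessions with at least 8 measured features (1712 features), the features of an accession did not share their log2 ratios, with an intraclass correlation between -0.016 and 0.007 on every array. In contrast, 354 pairs of features had nearly the same ratio on all 12 arrays (Pearson r above 0.98 and a root mean square difference under 0.15), and 0 of these pairs shared an accession although 10759 measured pairs did. Of the 354 pairs, 262 (74.0%) lay 170 feature numbers or a multiple of it, up to 1530, apart, as did 0.0406% of all pairs of measured features. The cause was not tested. Each value below therefore belongs to a feature and carries the name that the annotation gives to that feature.

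The labels say which dye each RNA carried but do not say how the ratio was formed. A positive value was taken as higher in LE cells than in control cells on all 12 arrays, which is likely from the order of the sample titles and from the sign of the study's own listed 72 h changes, of which only some were found among the deposited means. Arrays of the same orientation correlated with r between 0.08 and 0.50 across features with LE in Cy5, and between -0.02 and 0.44 with LE in Cy3. Arrays of opposite orientation correlated with r between -0.34 and 0.26. The 24 h replicate 1 array stood apart, with r between -0.04 and 0.06 to every other array, and without it the 24 h means were 0.31 for HADH, 0.09 for HADHA, -0.36 for HADHB, 0.41 for ACADM, 0.21 for ACADVL, 0.19 for ECI1, -0.64 for ECI2, 0.21 and 0.11 for CPT1A features 15845 and 42352, and 0.29 for CPT2. Log2 ratios of 48 h replicate 1 had an SD of 0.985, against 0.478 to 0.736 on the other 11 arrays. Among markers of a pancreatic carcinoma line, 6 of the 6 genes on the platform (KRT8, KRT18, VIM, LGALS1, S100A6 and ANXA2) had values. Of 6 acinar and endocrine markers and 4 liver markers on the platform, 0 had a value. CD14, HBB and COL1A1, markers of blood cells and fibroblasts, had values, and PTPRC, CD3E, COL1A2, DCN, PECAM1 and VWF were blank. The study itself lists VWF among the genes lowered by LE, although VWF was blank here. The source of this difference was not tested.

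CPT1A, the outer-membrane carnitine palmitoyltransferase that controls entry of long-chain fatty acids, had 2 features that differed from each other. Its feature 15845 was at -0.76, -0.47, -0.37, 0.60, -0.03 and 1.31 on 24 h replicates 1 to 6, at 0.61, -0.29, -0.57 and 0.74 on 48 h replicates 1 to 4, and at 1.61 and 0.46 on 72 h replicates 1 and 2. Both 72 h arrays were above 0, while the 24 h and 48 h arrays lay on both sides. The mean log2 ratio was 0.05 ± 0.77 (SD, n = 6) at 24 h, 0.12 ± 0.65 (n = 4) at 48 h and 1.04 ± 0.81 (n = 2) at 72 h, the last a 2.05-fold higher level with LE. Feature 42352 of CPT1A stayed closer to 0, with 0.15 ± 0.41, 0.25 ± 0.20 and 0.06 ± 0.05 at the 3 time points, and it was above 0 on 10 of 12 arrays. The gene mean over both features was 0.10, 0.19 and 0.55 at 24, 48 and 72 h. Feature 15845 was annotated to transcript NM_001876 and feature 42352 to NM_001031847. Their ranges overlapped at 24 h and 48 h and not at 72 h, where each had 2 arrays. How often other pairs of features do so was not counted, and a difference between the transcripts was not tested.

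CPT2, the inner-membrane enzyme that returns the acyl group to CoA, ranged from -0.46 to 0.96 at 24 h with a median of 0.58. It was at -0.61, 0.90, 0.58 and -0.07 on 48 h replicates 1 to 4 and at -0.999 and 0.43 on the 72 h arrays. The mean was 0.40 ± 0.62 at 24 h, 0.20 ± 0.67 at 48 h and -0.28 ± 1.01 at 72 h, each smaller than its SD. Without 48 h replicate 2 the 48 h mean was -0.03. Over the 12 arrays, the CPT2 feature had r above 0.9 with 4 features at multiples of 170 feature numbers. The highest was r = 0.961, with an unnamed feature 170 feature numbers away.

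ACADVL, which opens the cycle for very long chains at the inner membrane, was at -0.45, 0.22, 0.48, -0.13, 0.18 and 0.28 on 24 h replicates 1 to 6. It was at 0.25, 0.09, 0.14 and 0.93 on the 48 h arrays and at 0.44 and 0.47 on the 72 h arrays, so that all 6 later arrays lay above 0. Its mean was 0.10 ± 0.33 at 24 h, 0.35 ± 0.39 at 48 h and 0.46 ± 0.02 at 72 h, a 1.37-fold level, and the 48 h mean was 0.16 without replicate 4. ACADM, the medium-chain acyl-CoA dehydrogenase, was at -0.10, 0.36, 0.75, -0.27, 1.29 and -0.09 on 24 h replicates 1 to 6, at -1.08, 0.26, 0.07 and 0.15 at 48 h, and at 0.05 and 1.08 at 72 h. Its mean was 0.32 ± 0.60 at 24 h, -0.15 ± 0.62 at 48 h and 0.57 ± 0.73 at 72 h. The negative 48 h mean rested on replicate 1, and without that array it was 0.16, while the 24 h mean was 0.13 without replicate 5.

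HADHA, the alpha subunit of the trifunctional protein with its hydratase and long-chain 3-hydroxyacyl-CoA dehydrogenase activities, was at -0.42, 0.05, 0.13, -0.22, 1.14 and -0.64 on 24 h replicates 1 to 6. It was at -1.40, 0.34, 0.09 and 0.36 on 48 h replicates 1 to 4 and at -0.48 and 0.04 at 72 h. Its mean was 0.01 ± 0.62, -0.15 ± 0.84 and -0.22 ± 0.37 at 24, 48 and 72 h, and the 48 h mean was 0.26 without replicate 1. HADHA thus lay on both sides of 0 at every time point.

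HADHB, the beta subunit with the thiolase activity, was below 0 on 10 of 12 arrays. It was at -0.42, -0.52, -0.56, -0.51, 0.77 and -1.0 on 24 h replicates 1 to 6, at -2.17, 0.28, -0.46 and -0.59 on the 48 h arrays and at -1.84 and -0.80 on the 72 h arrays. Its mean was -0.37 ± 0.60 at 24 h, -0.74 ± 1.03 at 48 h and -1.32 ± 0.73 at 72 h, the last a level 0.401 times that of control. Without 48 h replicate 1, the lowest array, the 48 h mean was -0.26, and without 24 h replicate 5 the 24 h mean was -0.60. HADHB was lower than HADHA on 12 of 12 arrays, by a mean of -0.57 ± 0.39 (SD, HADHB minus HADHA), which compares 2 ratios on the same array and not their RNA levels. This count rests on the direction of the ratios, and turned by the dye labels HADHB was lower on 6 of 12 arrays, with a mean difference of 0.06 ± 0.71. The ratios of both lay on the same side of 0 on 7 of 12 arrays.

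**Figure D1:**
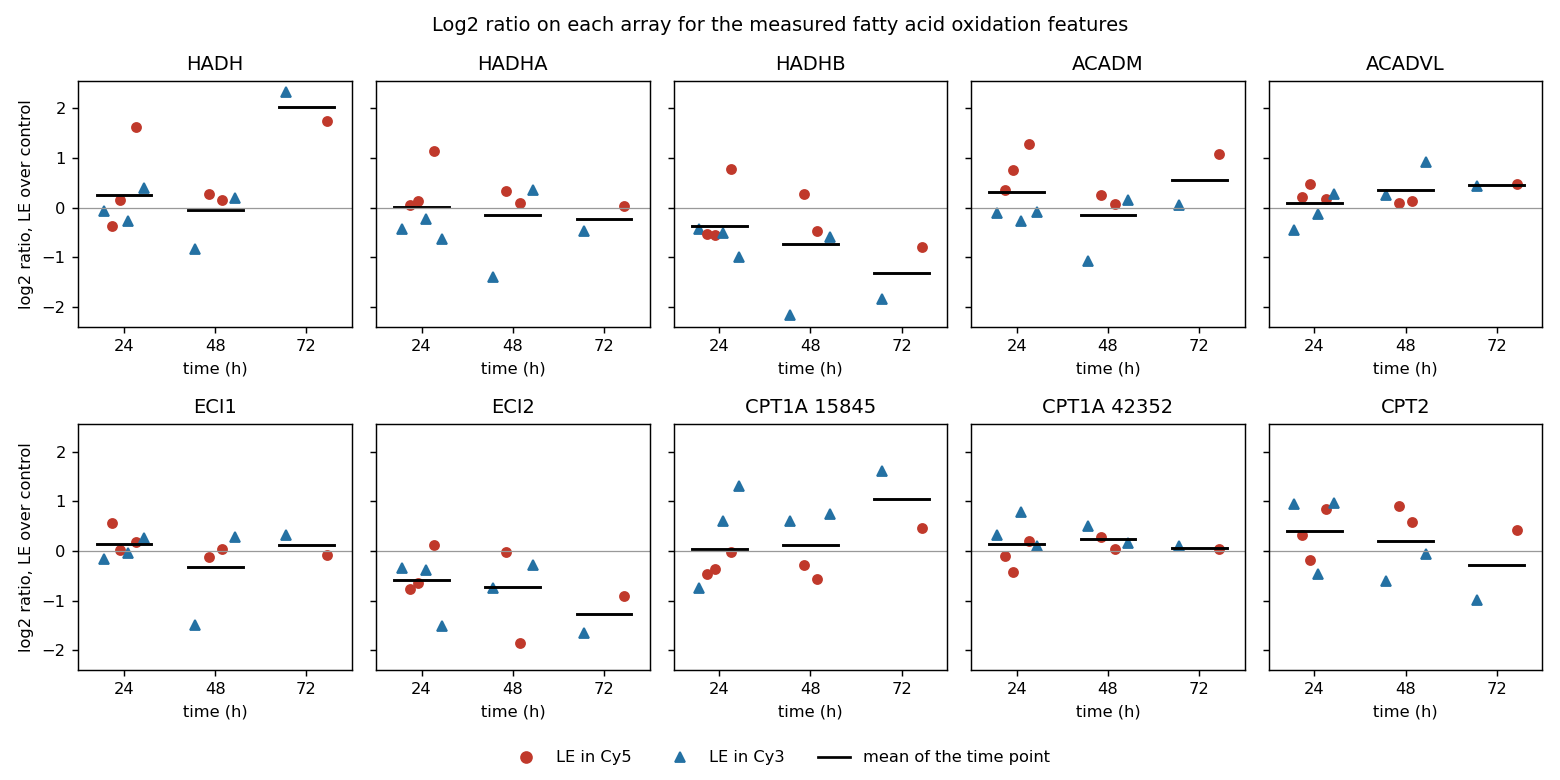
Log2 ratio of LE over control (vertical axis) at 24, 48 and 72 h (horizontal axis) for each of the 10 measured features. Each point is an array, red circles have LE in Cy5 and blue triangles LE in Cy3, and black lines are the means of the time points. HADH at 72 h lies at 1.74 and 2.33, and ECI2 lies below 0 on 11 of 12 arrays.

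Among the members, the HADHB feature had the most similar ratios at distant features. Its 12 ratios had r above 0.9 with those of 5 other features whose numbers differ from its own by multiples of 170, and 3 of the 5 met the criteria for nearly the same ratio given above. A feature named B3GNT9, 510 numbers away, had r = 0.998 over 12 arrays and a root mean square difference of 0.054. ZNF622 and an unnamed feature, at distances of 680 and -850, had r of 0.990 and 0.989 and differences of 0.115 and 0.114. FIP1L1 and ATP5F1D, at -510 and -170, were less close, with r of 0.959 and 0.949 and differences of 0.237 and 0.247. FIP1L1 was at 0.11 on 24 h replicate 4, where HADHB was at -0.51, and ATP5F1D was at -1.25 on 24 h replicate 2, where HADHB was at -0.52. B3GNT9, for example, was at -2.11 on 48 h replicate 1, where HADHB was at -2.17, and at 0.78 on 24 h replicate 5, where HADHB was at 0.77. Of all measured features with another measured feature at such steps, 4.12% had a likeness over r = 0.9, and of the 10 member features HADHB and CPT2 did. The other 8 had a highest r at these steps between -0.15 and 0.70. What the shared ratios come from was not tested.

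**Figure D2:**
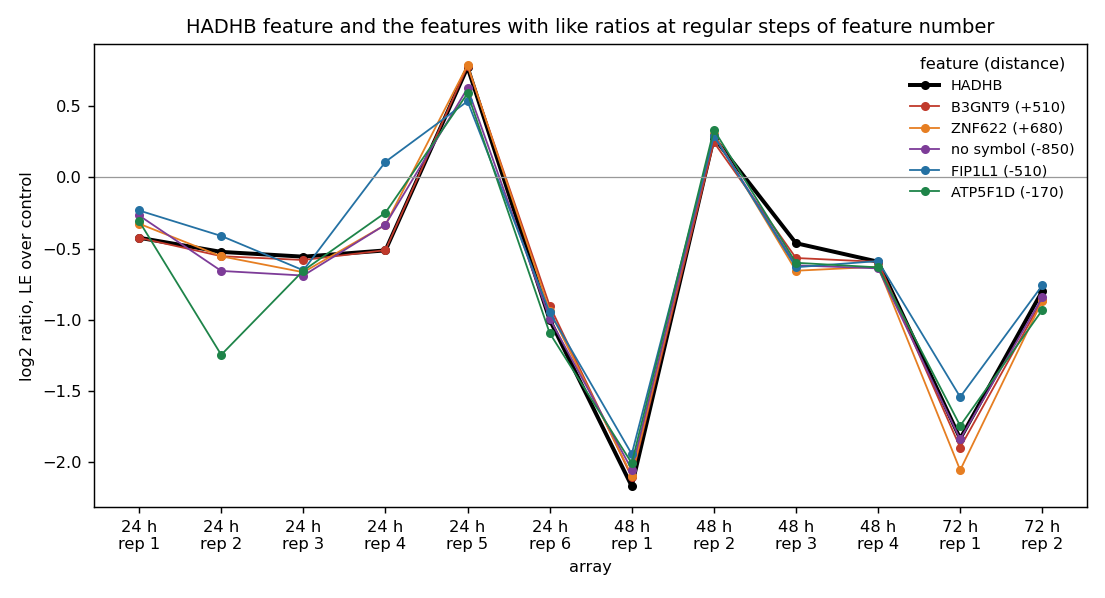
Log2 ratio of LE over control (vertical axis) on each of the 12 arrays (horizontal axis) for the HADHB feature, in black, and for the 5 features with r above 0.9 at steps of 170 feature numbers, in colors, with their distance in the legend. All 6 lines are lowest on 48 h replicate 1 and highest on 24 h replicate 5.

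In the genome, HADHA and HADHB stand head to head on chromosome 2, and the windows from 250 bases before to 50 after their starts share 194 bases. The HADHB window is shown because the subunits share this region. The difference in ratio between their features depends on the direction of the ratios, as given above. A link between this region and the ratios was not tested. It is taken from RefSeq (GRCh38.p14, chr2:26244689-26244988, plus strand), and capitals mark the bases that also belong to the HADHA window (chr2:26244583-26244882, minus strand).
HADHB window: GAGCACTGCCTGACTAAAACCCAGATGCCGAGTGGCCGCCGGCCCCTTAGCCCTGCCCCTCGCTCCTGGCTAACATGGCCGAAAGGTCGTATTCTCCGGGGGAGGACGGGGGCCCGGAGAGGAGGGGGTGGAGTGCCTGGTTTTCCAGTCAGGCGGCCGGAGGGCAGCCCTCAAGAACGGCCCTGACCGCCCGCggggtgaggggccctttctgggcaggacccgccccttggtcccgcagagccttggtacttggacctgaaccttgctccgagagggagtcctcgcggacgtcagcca
The hexamer AGGTCA, the core element of PPAR, RXR and ERR nuclear receptors that are known to control this pathway, was searched on both strands in the 13 windows that RefSeq lists for the 10 genes. It was found in 0 of the 13 windows, against 13.8% of all 35116 windows of the same length. The extended element TCAAGGTCA, which contains the hexamer, and a tandem pair of hexamers with 1 base between them were likewise in 0 of 13, against 0.353% and 0.0228% of all windows. GGGCGG, the core of the GC box, was in 10 of the 13 windows, among them those of HADHA and HADHB and not that of CPT1A, against 45.0% of all windows. These windows are not all separate, since those of HADHA and HADHB share bases and so do those of ECI2. Their GC content ran from 40.7% to 79.0%, and windows of like GC content were not compared.

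HADH, the 3-hydroxyacyl-CoA dehydrogenase for short and medium chains, had the largest ratio of the members at a time point. It was at -0.07, -0.36, 0.15, -0.26, 1.63 and 0.41 on 24 h replicates 1 to 6, at -0.83, 0.27, 0.16 and 0.20 on 48 h replicates 1 to 4, and at 2.33 and 1.74 on the 72 h arrays. Both 72 h arrays were higher than each of the 10 earlier arrays, and the share of all features with such an order was not counted. Between the time points, limma gave HADH an adjusted p = 0.9999. The mean was 0.25 ± 0.73 at 24 h, -0.05 ± 0.52 at 48 h and 2.03 ± 0.41 at 72 h, a 4.10-fold higher level with LE. The 24 h mean was -0.03 without replicate 5, and the 48 h mean was 0.21 without replicate 1. The size of the 72 h mean exceeded that of 99.8% of all features. HADH had been seen when the genes were chosen, so this rank is a description. The 72 h mean rests on 2 arrays (limma adjusted p = 0.189), and turned by the dye labels it was -0.29.

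ECI1, the mitochondrial isomerase of unsaturated fatty acids, ranged from -0.16 to 0.56 at 24 h. It was at -1.49, -0.13, 0.03 and 0.27 on 48 h replicates 1 to 4 and at 0.32 and -0.08 at 72 h, with means of 0.13 ± 0.26, -0.33 ± 0.79 and 0.12 ± 0.29 at 24, 48 and 72 h. Without 48 h replicate 1 the 48 h mean of ECI1 was 0.06. ECI2, an isomerase found in mitochondria and peroxisomes, was below 0 on 11 of 12 arrays. It was at -0.35, -0.77, -0.66, -0.38, 0.12 and -1.51 on 24 h replicates 1 to 6, at -0.75, -0.03, -1.86 and -0.28 at 48 h, and at -1.65 and -0.90 at 72 h. The mean was -0.59 ± 0.55 at 24 h, -0.73 ± 0.81 at 48 h and -1.28 ± 0.53 at 72 h, a level 0.413 times that of control, and the 48 h mean was -0.35 without replicate 3. With ratios read as LE over control, ECI1 lay on both sides of 0 and ECI2 almost always below it. Turned by the dye labels, the mean over the time points was 0.07 for ECI1 and 0.11 for ECI2. ECI2 had been seen when the genes were chosen, so the contrast is a description.

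Ranked by the mean over the time points, HADH was at 0.74 (standard error 0.19), CPT1A feature 15845 at 0.40 (0.21), ACADVL at 0.30 (0.14), ACADM at 0.25 (0.19), CPT1A feature 42352 at 0.15 (0.13), CPT2 at 0.11 (0.20), ECI1 at -0.02 (0.16), HADHA at -0.12 (0.20), HADHB at -0.81 (0.22) and ECI2 at -0.87 (0.19). Neighbors in this order other than CPT1A feature 15845 with HADH and HADHB with HADHA were closer than either standard error. The median over the 10 features was 0.13, with 6 above 0, against a median of 0.03 with 54.0% above 0 over all 17134 features. At 72 h the median size of the ratio was 0.51 for the 10 features and 0.29 for all. These values belong to the comparison in which the genes were selected, and they are given as a description.

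The 24 h means of the 10 features had a median of 0.12, with 8 above 0, the 48 h means a median of -0.10 with 4 above 0, and the 72 h means a median of 0.09 with 6 above 0. Over all features 53.4%, 50.3% and 54.3% were above 0 at these times. In the limma fit across all features, with an FDR of 0.01 by Benjamini-Hochberg adjustment, 0 of the 10 features passed at 24 h, 48 h or 72 h, where 0% of all features did at each time. At an unadjusted p under 0.05, limma gave 1, 2 and 4 of the 10 at 24, 48 and 72 h, against 5.78%, 9.29% and 8.99% of all features. In the mean over the time points 0 of 10 passed, against 0.0525% of all features, with 4 of 10 and 15.9% at the unadjusted level, and at an FDR of 0.05 there was 1 of 10, ECI2, against 1.24% of all features. Between the time points 0 of 10 passed, against 0% of all features, with 1 of 10, HADH, and 3.97% at the unadjusted level. Nothing is read from these counts, because they concern the comparison from which the genes came.

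The dye orientation was not used in choosing the genes. With LE in Cy5 minus LE in Cy3 as a term in the fit, 0 of the 10 features passed an FDR of 0.01 in limma, against 0.268% of all features. At an unadjusted p under 0.05 there were 4 of 10, against 27.2% of all features. ACADM was 0.86 higher with LE in Cy5 (standard error 0.25, limma adjusted p = 0.0506), and it was above 0 on 6 of 6 arrays with LE in Cy5 and 2 of 6 with LE in Cy3. CPT1A feature 15845 had a difference of -0.90 (standard error 0.30, limma adjusted p = 0.0768), with 1 of 6 arrays above 0 for LE in Cy5 and 5 of 6 for LE in Cy3. The difference was 0.87 (standard error 0.33, limma adjusted p = 0.106) for HADHB and 0.76 (standard error 0.30, limma adjusted p = 0.121) for HADHA. HADHA was above 0 on 6 of 6 arrays with LE in Cy5 and 1 of 6 with LE in Cy3.

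**Figure D3:**
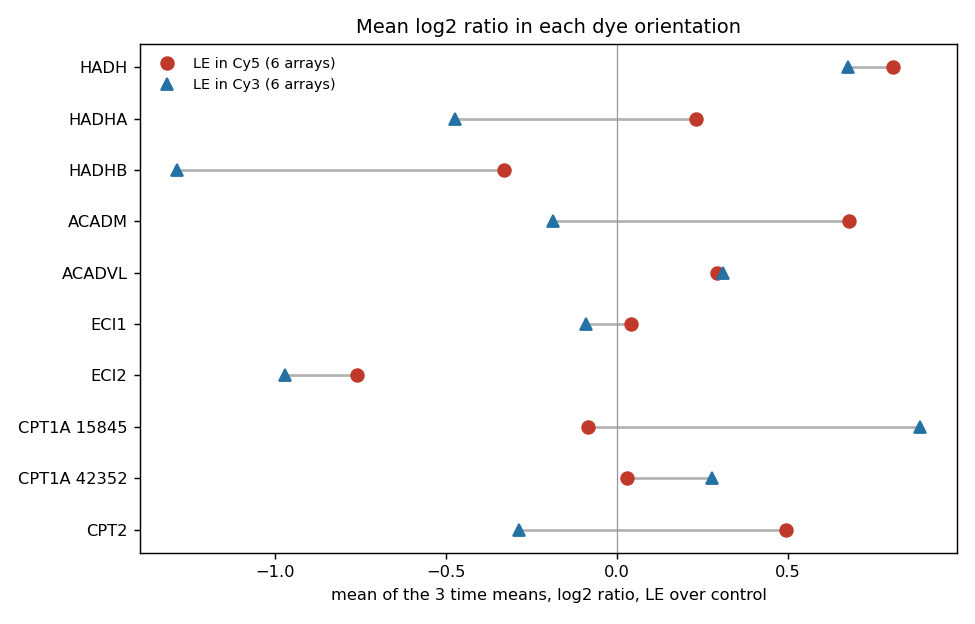
Mean log2 ratio of LE over control (horizontal axis, mean of the 3 time means) for each of the 10 features (rows), with red circles for the 6 arrays with LE in Cy5 and blue triangles for the 6 with LE in Cy3. HADHA, ACADM, ECI1 and CPT2 are above 0 with LE in Cy5 and below 0 with LE in Cy3, CPT1A feature 15845 is the reverse, and HADH and ECI2 have like means in both.

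Some members kept the sign of their mean in both orientations and some did not. HADH averaged 0.81 with LE in Cy5 and 0.68 with LE in Cy3. It was above 0 on 5 of 6 arrays with LE in Cy5 and on 3 of 6 with LE in Cy3. The mean with LE in Cy3 includes 2.33 on 72 h replicate 1. ECI2 averaged -0.76 with LE in Cy5 and -0.97 with LE in Cy3, and ACADVL averaged 0.29 with LE in Cy5 and 0.31 with LE in Cy3. HADHB averaged -0.33 with LE in Cy5 and -1.29 with LE in Cy3. HADHA averaged 0.23 with LE in Cy5 and -0.48 with LE in Cy3, and ACADM averaged 0.68 with LE in Cy5 and -0.19 with LE in Cy3. If the ratios were instead Cy5 over Cy3 and were turned by the dye labels, the mean over the time points would be 0.07 for HADH, 0.35 for HADHA, 0.48 for HADHB, 0.43 for ACADM, -0.01 for ACADVL, 0.07 for ECI1, 0.11 for ECI2, -0.49 for CPT1A feature 15845, -0.12 for CPT1A feature 42352 and 0.39 for CPT2. The 72 h mean of HADH would then be -0.29. The sign of 7 of the 10 features thus depends on this reading.

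By a fixed rule, the genes with the most similar ratios were sought for the 2 members of largest size in the mean over the time points, across 8827 other genes and 12 arrays that share their dye orientation and time. For ECI2 these were CDC123 (r = 0.969), PDZK1IP1 (r = 0.899) and ATP5MK (r = 0.899), which averaged -0.28, -0.10 and -0.07. For HADHB they were B3GNT9 and ZNF622, both described above as features at regular steps, and LINC00938 (r = 0.960). These r values are a description.

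Related lists drawn up from general knowledge gave a wider view of the pathway. Of the other mitochondrial beta-oxidation enzymes, 10 of 13 genes were measured, 4 with a mean over the time points above 0 and 6 below. ACAD8, which acts in valine breakdown, was at 0.33 ± 0.32, 0.38 ± 0.35 and 0.60 ± 0.24 at 24, 48 and 72 h, and ACAD9, also an assembly factor of complex I, at 0.27 ± 0.39, 0.36 ± 0.18 and 0.54 ± 0.47. In the carnitine shuttle and acyl-CoA synthesis, 5 of 13 genes were measured and 4 were below 0. SLC22A5, the carnitine transporter of the plasma membrane, averaged -0.36 over the time points, and ACSL1, an acyl-CoA synthetase, averaged -0.30. The electron transfer flavoproteins, which take electrons from the acyl-CoA dehydrogenases, were measured in 3 of 3 genes, all below 0, with ETFDH at -0.48, ETFA at -0.39 and ETFB, a mean of 10 features, at -0.02.

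In peroxisomal beta-oxidation 5 of 13 genes were measured and all 5 were above 0, with DECR2, a dienoyl-CoA reductase, at 0.50 and the thiolase ACAA1 at 0.18 (standard error 0.13). The others were smaller, with ACOX3 at 0.02 (standard error 0.15), HSD17B4 at 0.13 (0.14) and ACOT8 at 0.14 (0.13). Regulators of the pathway were measured in 12 of 19 genes, 6 above 0 and 6 below. PDK4, a kinase that restrains pyruvate dehydrogenase, was at 0.55, RXRB, a partner of PPAR receptors, at 0.47, and PPARA, the mean of 3 features, at 0.00. In fatty acid synthesis 11 of 15 genes were measured, 7 above 0 and 4 below, with MECR of the mitochondrial synthesis pathway at -0.54 and the desaturase SCD at -0.43. In ketone body metabolism 3 of 6 were measured, with BDH1, the hydroxybutyrate dehydrogenase, at -0.61 and ACSS1 at -0.21. Over all 8828 measured genes the median was 0.02 and 53.5% were above 0. At an FDR of 0.01 in limma on gene means, 0 of the 49 measured genes of these lists passed at 24, 48 or 72 h, where 0% of all genes did, and 0 passed in the mean over the time points, where 0.0793% did. At an unadjusted p under 0.05 there were 2, 8 and 4 of the 49 at 24, 48 and 72 h, with 15 for the mean over the time points, against 6.09%, 8.88%, 8.94% and 15.7% of all genes.

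**Figure D4:**
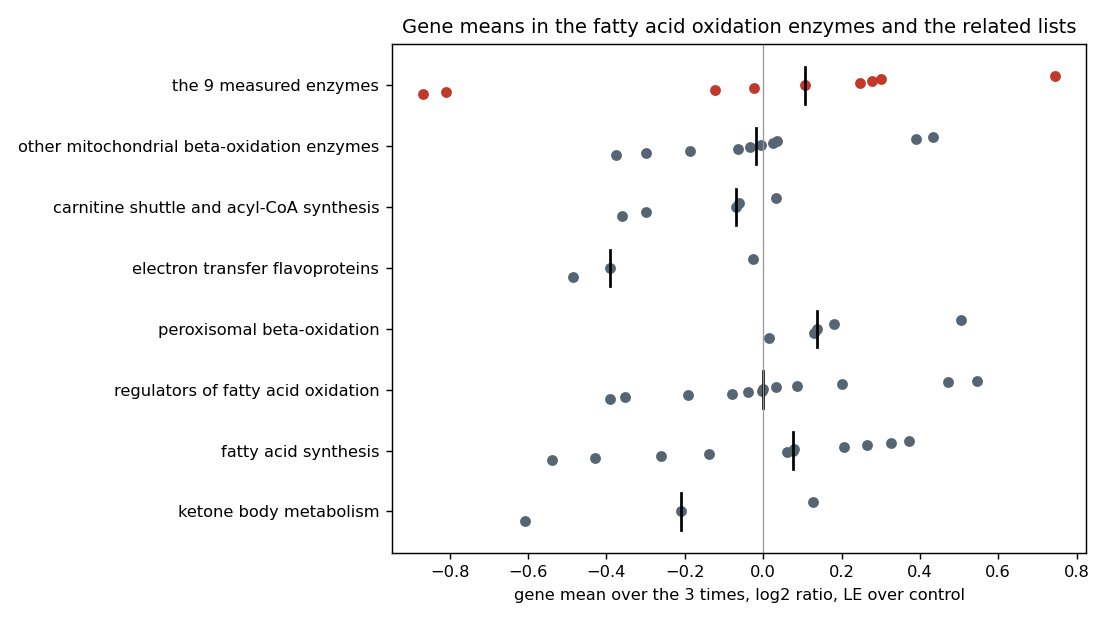
Gene mean over the 3 time points (horizontal axis, log2 ratio of LE over control) for the 9 measured enzymes, in red, and the genes of the related lists, in gray (rows). Each point is a gene and black bars are medians of a list. The related genes run between BDH1 at -0.61 and PDK4 at 0.55, and HADH at 0.74, HADHB at -0.81 and ECI2 at -0.87 are genes that had been seen when the list was chosen.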

How the data were processed

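The data are 12 hybridizations of RNA from LE-treated and control MiaPaCa-2 cells to Agilent whole human genome arrays. Per the methods, the authors quantified spots in GenePix Pro 6.1, filtered them by quality in Acuity 4.0, and normalized in limma (version not given), by lowess on each array and then by quantiles across arrays. The deposited values are log2 ratios, and spot intensities were not used here. The study's supplementary list of its own fold changes and FDR values served only to judge the sign of the ratios: of 941 listed 72 h values, 426 equaled some 72 h mean as deposited (within 2e-05 on the log2 scale), 79 with the sign changed and 84 with ratios turned by the dye labels, and among the members the HADHB and ECI2 features had a match. The list and the features are not paired by name. Symbols came from the platform's annotation, which named 13436 of the 17134 measured features with 1 symbol, 32 with several and 3666 with none.

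A model with 1 term per time point was fitted over all features and 12 arrays with limma 3.58.1 (R 4.3.3, statmod 1.5.0), with eBayes and Benjamini-Hochberg adjustment at 0.01, which left 9 residual degrees of freedom. The dye comparison added 1 term. Gene values are means over the features of a symbol. The script was tested on simulated data. Members and lists were chosen with earlier results of these data known. The genes named are the 10 members, the 2 measured genes of largest mean size in each related list and the 3 most similar genes of 2 members. Outside this rule, ETFB, PPARA, ACOX3, HSD17B4 and ACOT8, the marker genes and the features at steps of 170 were named after their values were seen. The criteria for those steps were also set after the values were seen. Alternatives were ratios turned by the dye labels, a term for dye, a block for the replicate number, arrays centered, scaled or quantile-normalized again, time points alone, robust eBayes, FDR 0.05, gene means, medians over features and each array left out. Promoter windows came from RefSeq (GRCh38.p14), which held all 10 genes. The number of arrays limits the precision. Figures were drawn with matplotlib 3.10.9 under Python 3.11.15, and tables were handled by pandas 2.3.3 and numpy 2.4.6.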

Additional observations from a re-analysis of the deposited data

Results flagged for a closer look

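Among 22 sets of arrays at 24 h and 48 h, 4 had an array far from the others, judged by its gap to the nearest array against the range of the set, a rule by which chance alone marks about 1 in 20 sets. On 48 h replicate 1 (LE in Cy3), HADHA was at -1.40 with the nearest array at 0.09, ACADM at -1.08 with the nearest at 0.07, and HADH at -0.83 with the nearest at 0.16. The same array had the widest spread of ratios of the 12 arrays, with an SD of 0.985. On 24 h replicate 5 (LE in Cy5), HADHB was at 0.77 with the nearest array at -0.42, and the 5 features with r above 0.9 to it were between 0.53 and 0.79 on that array.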

How the results depend on the processing

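The counts of member features past an FDR of 0.01 were 0 in every comparison and stayed 0 with ratios turned by the dye labels, a dye term, arrays centered, scaled or quantile-normalized again, robust eBayes, time points alone, gene means, and without any single array (range 0 to 0 for each). With no array left out, 0 of all features or genes passed at 24, 48 or 72 h in these settings. Member counts there could only be 0. In the mean over the time points, 9 of all features passed in the main fit, 2 turned by the dye labels and 15 with a dye term. For dye orientation, 46 passed in the main fit, 0 turned and 213 with quantile normalization repeated. At an FDR of 0.05 the member count in the mean over the time points was 1, ECI2, among 213 of all 17134 features. With the replicate block the count was 0 in the 5 comparisons in which it could be fitted, while the number over all features in the mean over the time points was 86, against 9 without it. Deviations of same-numbered arrays correlated with r between 0.058 and 0.489. Deviations of differently numbered arrays were not compared, and same-numbered arrays share their dye orientation. These r values therefore cannot show whether same-numbered arrays are paired. The dye orientation is the same for every array of a replicate number, and the block together with a dye term could not be fitted. Leaving out a 72 h array leaves 1 array there, which is assumed to vary like the others. Of the 27 gene means by time, 18 changed sign when turned by the dye labels, 1 with centering, 2 with scaling and 2 with quantile normalization. The largest move under turning was 2.33, for HADH at 72 h. Without single arrays 14 of 108 values changed sign.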
